A study of Homo sapiens with 6 samples.

Results

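The replication-dependent histone genes supply the core histones H2A, H2B, H3 and H4 and the linker histone H1 that package newly copied DNA. They were taken as every protein-coding gene of the deposited table whose symbol starts with HIST1H, HIST2H, HIST3H or HIST4H. This gave 71 of 58735 genes, of which 6 encode H1, 17 encode H2A, 18 encode H2B, 15 encode H3 and 15 encode H4. A few genes taken in by their symbols, such as the testis histone genes HIST1H1T and HIST1H2BA, are not known for expression in dividing somatic cells. RNA sequencing was carried out on SK-MES-1, an established human line from a squamous cell carcinoma of the lung, in 6 libraries. Groups si1 and si2 were SK-MES-1 cells with transient knockdown of the keratin gene KRT6A, with 2 libraries each, and group NC was control SK-MES-1 cells with 2 libraries. The labels give no reagent sequence, dose or time, and do not say whether libraries of a group came from separate cultures, so the p-values may measure technical spread only.

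The reads assigned to genes, recovered from the deposited values, numbered 14948607 to 17401392 per library. KRT6A had 0 reads in all 6, so its knockdown could not be checked. The squamous markers TP63 and PKP1 averaged 7.78 and 15.8 FPKM (fragments scaled by gene length and by sequencing depth), whereas KRT5 and KRT14 were at or near 0. SOX2 averaged 0.524 FPKM, and DSG3 was at 0 in all libraries. The summed level of the epithelial markers was 264 to 379 FPKM, and that of the fibroblast markers 17.1 to 25.0 FPKM. Most of the epithelial sum came from keratin genes, whereas EPCAM averaged 4.63 FPKM and CDH1 0.13 FPKM. Most of the fibroblast sum came from COL1A1, at 18.8 FPKM, whereas COL1A2 was at 0 and DCN near 0. The immune markers summed to 0.819 to 1.76 FPKM and the endothelial markers to 0.256 to 0.441 FPKM.

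Transcription of replication-dependent histone genes rises as cells enter S phase, under NPAT, which CDK2 activates. Their mRNAs usually end at a conserved hairpin, the histone stem-loop, instead of a poly(A) tail. SLBP binds the stem-loop, the U7 particle and the cleavage factors cut after it, and the mRNA is degraded when DNA synthesis stops. Some of these genes can also give longer, polyadenylated transcripts, which are known from cells that leave the cycle.

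A 16-base stem-loop was found in GENCODE 29 transcripts of 32 of the 71 genes, including 11 of the 14 genes that averaged at least 1 FPKM over the 6 libraries. Only annotated transcripts were searched, and the models of 33 of the 71 genes hold the coding sequence only. In those models a stem-loop after the coding sequence could not be found. HIST1H1C, HIST1H2BK and HIST2H2AC, the genes of the 14 without a hit, are among them. The sequences of 6 of the 14 genes are given because their levels are described in detail. Capitals mark the stem-loop and lower case the 5 bases on each side, in the direction of the gene, with hg38 coordinates of the capitals.

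HIST1H2BD, chr6:26158587-26158602, + strand: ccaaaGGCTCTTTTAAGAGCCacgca
HIST1H2AC, chr6:26124669-26124684, + strand: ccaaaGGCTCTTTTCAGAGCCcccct
HIST2H2BE, chr1:149886188-149886203, − strand: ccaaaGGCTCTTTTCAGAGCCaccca
HIST1H3H, chr6:27810516-27810531, + strand: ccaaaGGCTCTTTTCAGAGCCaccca
HIST1H4H, chr6:26285131-26285146, − strand: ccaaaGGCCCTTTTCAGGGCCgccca
HIST1H4I, chr6:27139654-27139669, + strand: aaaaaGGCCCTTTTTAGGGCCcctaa

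The form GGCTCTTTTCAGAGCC was shared by 17 genes of the H2A, H2B and H3 classes, and the form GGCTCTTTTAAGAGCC by 5. The H4 genes carried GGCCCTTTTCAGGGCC in 5 genes and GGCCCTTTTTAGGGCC in 3. Several annotated transcripts continue well past the stem-loop: by 1128 bases in the longest HIST1H2AC transcript, by 1729 bases in HIST2H2BE and by 769 bases in HIST1H3H. HIST1H2BD has a transcript of 496 bases that ends 39 bases after its stem-loop and a spliced one of 789 bases that lacks the stem-loop. The deposited values are per gene and do not separate these forms.

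Promoters were matched by symbol in the RefSeq table (GRCh38.p14) for 61 of the 71 genes. Below are the 120 bases before the start of 3 H2B genes that were detected and of HIST1H2BB, which had 0 reads in every library. Each was searched on both strands for short letters of known promoter elements, and capitals mark them. CCAAT is the letters of the box that NFY binds. TATAAA is a TATA box. ATTTGCAT is the octamer that POU2F1 binds.

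HIST1H2BD, chr6:26158001-26158120, + strand: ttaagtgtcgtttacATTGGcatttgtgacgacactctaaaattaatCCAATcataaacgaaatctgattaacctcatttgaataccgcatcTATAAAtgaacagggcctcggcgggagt
HIST1H2BK, chr6:27146859-27146978, − strand: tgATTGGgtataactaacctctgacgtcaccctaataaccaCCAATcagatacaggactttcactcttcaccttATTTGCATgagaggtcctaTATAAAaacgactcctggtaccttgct
HIST2H2BE, chr1:149886683-149886802, − strand: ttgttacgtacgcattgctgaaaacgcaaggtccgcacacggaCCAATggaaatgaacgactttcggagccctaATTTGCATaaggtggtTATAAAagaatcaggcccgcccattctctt
HIST1H2BB, chr6:26043714-26043833, − strand: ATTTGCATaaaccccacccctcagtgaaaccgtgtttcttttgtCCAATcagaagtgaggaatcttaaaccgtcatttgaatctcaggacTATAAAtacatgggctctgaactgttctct

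HIST1H3D and HIST1H2BE were left out of the counts of letters, because the RefSeq start lies over 1000 bases from the start of their gene models. Of the 59 windows left, 22 overlap the window of another histone gene, usually a head-to-head partner, so the same letters can count for both. In the full RefSeq windows, 250 bases before to 50 bases after the start, CCAAT was present in 13 of the 14 detected genes, in 36 of 45 genes below 1 FPKM and in 34.6% of all 35116 promoters. TATAAA was present in 9 of 14, in 30 of 45 and in 11.5% of all promoters. ATTTGCAT was present in 7 of 14, in 17 of 45 and in 1.77% of all promoters. By class, the octamer letters were in 13 of 17 H2B and 11 of 14 H2A promoters, and in 0 of the 6 H1, 9 H3 and 13 H4 promoters. CCAAT was in all 6 H1, 14 H2A, 17 H2B and 9 H3 promoters, but in 3 of the 13 H4 promoters. Its shares in the detected and the other genes therefore depend on how many of them are H4 genes. HIST1H2BD, which had the largest difference from NC among the 14 genes on the scale of log2(FPKM + 1), had no ATTTGCAT in its window. HIST1H2BB, without a read, carried all 3 sets of letters.

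Of the 71 genes, 14 averaged at least 1 FPKM: HIST1H1C of the 6 H1 genes, 5 of 17 H2A genes, 5 of 18 H2B genes, HIST1H3H of the 15 H3 genes and 2 of 15 H4 genes. A level of 1 FPKM was reached by 15 and 17 genes in the si1 libraries, by 7 and 8 in the si2 libraries and by 12 and 13 in the NC libraries. HIST1H2BK, HIST1H1C, HIST1H2BD, HIST1H2AC, HIST1H4I and HIST1H2BF reached it in every library. At the other end, 19 genes had 0 reads in all 6 libraries, which allows up to 3 reads in each, and HIST1H4C was one of them. Just inside the threshold was HIST3H2A, with a mean of 1.06 FPKM from 94 reads in all, and just outside it was HIST1H2BJ, with 0.752 FPKM from 71 reads.

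The level fell unevenly on the genes. HIST1H2BK, the highest member in FPKM, averaged 25.4 FPKM, HIST1H1C 13.7 FPKM, HIST1H2BD 6.18 FPKM and HIST1H2AC 5.17 FPKM, and the other 10 detected genes averaged 1.06 to 2.88 FPKM. H2B genes took 52.2% of the summed FPKM, H1 genes 19.1%, H2A genes 16.2%, H4 genes 8.15% and H3 genes 4.32%. FPKM divides by gene length, and the shares of reads were 40.7% for H2B, 24.5% for H2A, 15.2% for H1, 13.7% for H4 and 5.83% for H3. The annotated gene models differ between the detected and the other genes. The models of HIST1H2BK, HIST1H1C and HIST2H2AC and of 30 of the 57 genes below 1 FPKM hold the coding sequence only. The median model length was 1045.5 bases in the 14 detected genes and 435 bases in the 57 others. A transcript with AATAAA or ATTAAA in its last 50 bases, the usual signal for a poly(A) tail, was annotated for 8 of the 14 and for 15 of the 57. A signal after the coding sequence could not be found in the 33 models that hold the coding sequence only, and 0 of them showed the letters. These 2 shares therefore also reflect how complete the models are.

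Whether the libraries were made from polyadenylated or from ribosome-depleted RNA is not given in the sources used here. Among 10 RNAs known to lack a poly(A) tail, 7 were listed at 0 in all libraries, RN7SK, RN7SL1 and RMRP among them. RN7SL2, an RNA of the signal recognition particle, was at 21 and 19.9 FPKM in si1, 3.80 and 5.95 FPKM in si2, and 29.7 and 30.6 FPKM in NC. It was lower than NC in both knockdown groups (limma, log2 fold change −0.54 with adjusted p = 0.0498 in si1, and −2.43 with adjusted p = 2e-04 in si2). Its part in the histone values was not tested.

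Many histone genes lie head to head in H2A and H2B pairs, and 11 such pairs start within 1000 bases of each other. Both genes were detected in 2 pairs, 1 gene in 5 pairs and neither in 4. HIST1H2BK averaged 25.4 FPKM, against 0.102 FPKM for its neighbour HIST1H2AH, and HIST1H2BF averaged 1.74 FPKM beside HIST1H2AD, which had 0 reads. The exons of HIST1H2AD overlap those of AL031777.3 on the same strand. Of the short sequences in the HIST1H2AD model, 98.0% also occur in transcripts of AL031777.3. The counting could therefore have placed reads of HIST1H2AD elsewhere, and its 0 reads do not show that it was silent. By location, 6 of 34 genes at chr6:25726132-26285638, 5 of 21 genes at chr6:27125897-27893843, 3 of 15 genes on chromosome 1 and 0 of 1 on chromosome 12 were detected.

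The summed level of the 71 genes was 111 and 118 FPKM in si1, 45.5 and 40.4 FPKM in si2, and 62.7 and 59.4 FPKM in NC. Both si1 libraries were above, and both si2 libraries below, the NC libraries. The mean was 1.87 times NC in si1 and 0.703 times NC in si2, and the si2 mean was 0.375 times the si1 mean. RPM are reads scaled to the total of recovered reads in the library. The 71 genes took 96.5 and 103 RPM in si1, 32.6 and 30.2 RPM in si2, and 50.4 and 47.7 RPM in NC. In bulk libraries, fewer cells that express these genes and less RNA per cell cannot be told apart.

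**Figure D1:**
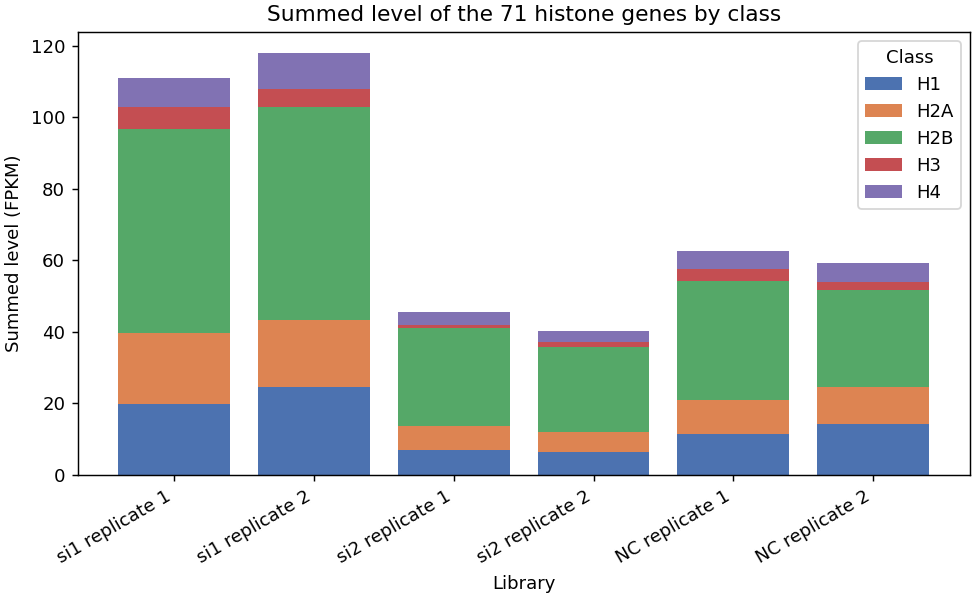
Stacked bars show the summed level (FPKM) of the 71 histone genes in each of the 6 libraries, split into H1, H2A, H2B, H3 and H4. The si1 bars reach 111 and 118 FPKM, the si2 bars 45.5 and 40.4 FPKM and the NC bars 62.7 and 59.4 FPKM, with H2B the largest segment in each.

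Each class had the same order of group means. H1 genes summed to 22.2 ± 3.34 FPKM in si1, 6.73 ± 0.517 FPKM in si2 and 12.9 ± 2.1 FPKM in NC (SD, n = 2 each). H2A genes summed to 19.4 ± 0.744 FPKM in si1, 6.12 ± 0.831 FPKM in si2 and 9.91 ± 0.638 FPKM in NC. H2B genes summed to 58.1 ± 1.7 FPKM in si1, 25.6 ± 2.42 FPKM in si2 and 30.1 ± 4.6 FPKM in NC, and here si2 and NC differed by about their spread. H3 genes summed to 5.5 ± 0.728 FPKM in si1, 1.06 ± 0.23 FPKM in si2 and 2.87 ± 0.59 FPKM in NC. H4 genes summed to 9.17 ± 1.3 FPKM in si1, 3.37 ± 0.0997 FPKM in si2 and 5.27 ± 0.12 FPKM in NC.

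The comparisons below ask whether the KRT6A knockdown groups differed from NC and from each other. Fold changes are log2 of FPKM + 1, with limma's standard error (SE), and a call is an adjusted p below 0.05 by the Benjamini-Hochberg method among the 12319 genes tested, which averaged at least 1 FPKM. In si1 against NC, 8 of the 14 histone genes were higher and 0 lower (57.1% called), while 9.47% of all tested genes were called higher, 12.9% lower and 22.4% in either direction. The median log2 fold change was 0.66 over the 14 genes and −0.01 over all tested genes. Both si1 libraries lay above both NC libraries in 12 of the 14 genes, HIST3H2A and HIST1H2BC being the exceptions, and the same held for 30.1% of all tested genes. The count of 8 was lower in each fit that left out an NC or si1 library. Such a fit keeps 1 library in that group, and it also called fewer of all tested genes than the full fit.

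In si2 against NC, 4 of the 14 genes were lower and 0 higher (28.6% called). Of all tested genes, 15.4% were called lower, 13.6% higher and 29% in either direction. The share called in either direction was near the background, and the share called lower, from 4 genes, was above it. The median log2 fold change was −0.28 over the 14 genes, whose values ran from −1.20 to −0.05, and 0.01 over all tested genes. Both si2 libraries lay below both NC libraries in 8 of the 14, against 34.5% of all tested genes. The count of 4 was 1 without NC replicate 1 and 2 without si2 replicate 2. For si1 and si2 together against NC, HIST1H2BD and HIST1H2AC were higher and 0 were lower (14.3% called). Of all tested genes, 8.73% were called higher, 11.8% lower and 20.5% in either direction. The share called in either direction was below the background, and the share called higher, from 2 genes, was above it. Leaving out any of the 6 libraries lowered this count of 2 to 1.

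In si2 against si1, 11 of the 14 genes were lower and 0 higher (78.6% called), while 18.6% of all tested genes were called lower, 19.9% higher and 38.5% in either direction. The median log2 fold change was −0.93 over the 14 genes and 0.01 over all tested genes. Both si2 libraries lay below both si1 libraries in 13 of the 14, all but HIST3H2A, and in 33.8% of all tested genes. Without 1 library at a time the count was 9 to 11.

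The filter on the mean favours genes that were high in any one group, and 8 of the 14 genes were under 1 FPKM in at least 1 library, so the counts over the 14 describe the genes that passed and not the family. Among the 6 genes at 1 FPKM or more in every library, 5 were higher in si1 than in NC, 2 were lower in si2 than in NC, and all 6 were lower in si2 than in si1. Of the 11040 genes that passed this stricter filter, 9.92% were called higher in si1 than in NC, 16.2% lower in si2 than in NC and 19.5% lower in si2 than in si1. With no filter at all, 11 of the 25 histone calls in the 4 comparisons did not hold, among them those of HIST1H1C and HIST1H3H in si2 against NC (limma adjusted p = 0.0515 and 0.0856). The others were HIST2H2BE in si2, HIST1H2BK, HIST1H1C, HIST1H4I, HIST1H2AG and HIST1H4H in si1, HIST2H2AC and HIST1H2BF in si2 against si1, and HIST1H2AC for both groups together. The fits named for single genes below are mostly those without 1 library. The 57 genes below the filter had 135 and 165 reads in all in si1, 36 and 45 in si2, and 82 and 87 in NC. These are 8.41 and 9.91 RPM in si1, 2.29 and 3.01 RPM in si2, and 4.94 and 5.0 RPM in NC, so both si1 libraries were highest and both si2 libraries lowest. Most of the 57 carried too few reads to describe singly, since 44 had at most 10 reads over all 6 libraries. HIST1H2BJ, the highest of them, was at 1.42 and 1.31 FPKM in si1, 0.267 and 0.348 FPKM in si2, and 0.756 and 0.419 FPKM in NC.

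**Figure D2:**
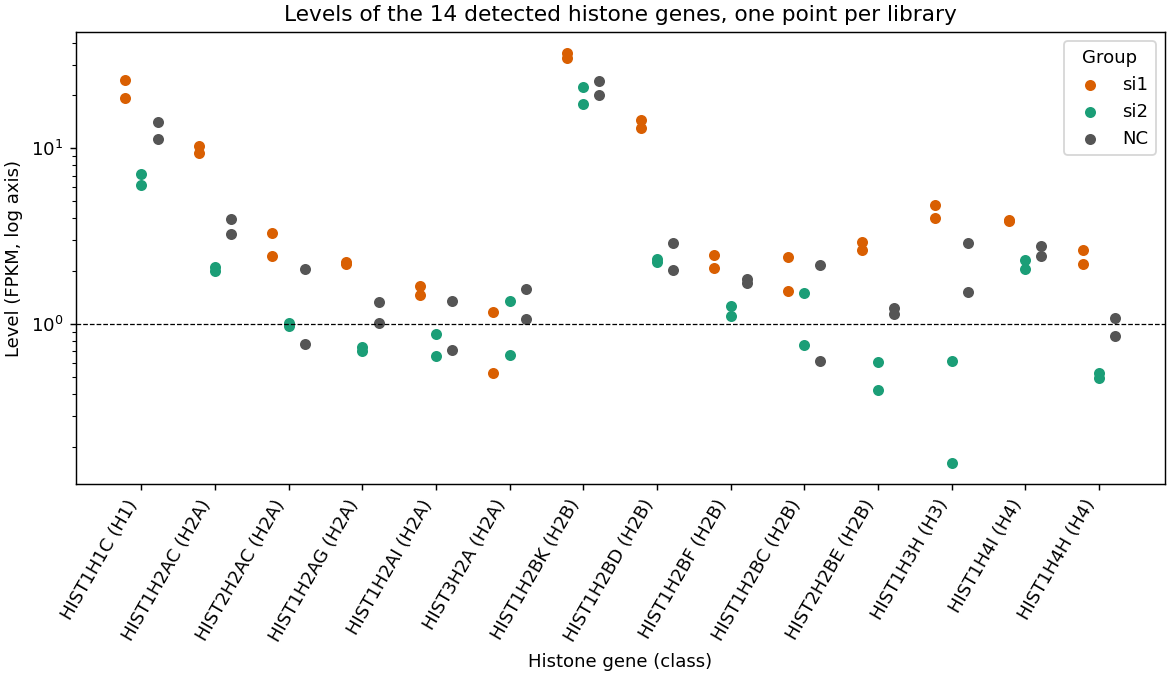
Points show the level (FPKM, log axis) of the 14 detected histone genes in each library, with si1, si2 and NC side by side and the dashed line at 1 FPKM. HIST1H2BD stands at 13.0 and 14.6 FPKM in si1 but at 2.25 and 2.35 FPKM in si2 and 2.89 and 2.03 FPKM in NC, whereas the 3 groups of HIST3H2A overlap.

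H1 binds the DNA between nucleosomes. HIST1H1C (ENSG00000187837, chr6:26055787-26056428, − strand) was the only H1 gene detected, at 19.2 and 24.4 FPKM in si1, 7.10 and 6.18 FPKM in si2, and 11.4 and 14.2 FPKM in NC. The groups did not overlap, with si1 highest and si2 lowest. Expression of HIST1H1C was higher in si1 than in NC (log2 fold change 0.73, SE 0.142, limma adjusted p = 0.0124) and lower in si2 than in NC (−0.85, SE 0.142, limma adjusted p = 0.00603). In si2 against si1 the log2 fold change was −1.57 (SE 0.142, limma adjusted p = 0.000338). Its call in si2 against NC did not hold without the filter on low values (limma adjusted p = 0.0515). Its call in si1 did not hold without NC replicate 1 (adjusted p = 0.0826) and without si1 replicate 2 (0.055), within a range of 0.00238 to 0.0828 over the alternatives. Each of the other 5 H1 genes averaged at most 0.107 FPKM, the value of HIST1H1E.

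H2A and H2B join as dimers on the outside of the nucleosome core. HIST1H2AC (ENSG00000180573, chr6:26124145-26139116, + strand) was at 9.39 and 10.3 FPKM in si1, 2.01 and 2.10 FPKM in si2, and 3.98 and 3.24 FPKM in NC. The 3 groups were apart, and the libraries of each knockdown group were close to each other. HIST1H2AC was higher in si1 than in NC (log2 fold change 1.24, SE 0.106, limma adjusted p = 0.000512), lower in si2 than in NC (−0.59, SE 0.106, limma adjusted p = 0.00773) and lower in si2 than in si1 (−1.82, SE 0.106, limma adjusted p = 6.44e-05). For both groups together against NC it was higher by 0.32 (SE 0.0914, limma adjusted p = 0.0476), a call that did not hold without any 1 of the 6 libraries (adjusted p = 0.059 to 0.301). The si2 call did not hold without NC replicate 1 (adjusted p = 0.0505, within a range of 0.00313 to 0.0505). For HIST1H2BC, its head-to-head partner given with the H2B genes, the NC libraries overlapped those of both knockdown groups.

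HIST1H2AG (ENSG00000196787, chr6:27133042-27135291, + strand) was at 2.26 and 2.21 FPKM in si1, 0.703 and 0.735 FPKM in si2, and 1.01 and 1.34 FPKM in NC, with no overlap between groups. It was higher in si1 than in NC (log2 fold change 0.57, SE 0.145, limma adjusted p = 0.0302), was not called in si2 against NC (−0.34, SE 0.145, limma adjusted p = 0.127), and was lower in si2 than in si1 (−0.91, SE 0.145, limma adjusted p = 0.00308). Its si1 call did not hold without NC replicate 1 (adjusted p = 0.16), NC replicate 2 (0.0651), si1 replicate 1 (0.105) or si1 replicate 2 (0.0994), within a range of 0.0122 to 0.16. HIST2H2AC (ENSG00000184260, chr1:149886975-149887364, + strand) rested on 5 to 21 reads per library, at 3.29 and 2.42 FPKM in si1, 0.974 and 1.02 FPKM in si2, and 0.767 and 2.04 FPKM in NC. Its NC libraries lay on both sides of the si2 libraries, and neither group was called against NC (limma adjusted p = 0.0872 in si1 and 0.565 in si2). It was lower in si2 than in si1 (log2 fold change −0.94, SE 0.256, limma adjusted p = 0.0256), a call that did not hold without any 1 of the 4 libraries of those groups: si1 replicate 1 (adjusted p = 0.136), si1 replicate 2 (0.0508), si2 replicate 1 (0.0878) and si2 replicate 2 (0.0753), within a range of 0.00727 to 0.136.

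The other 2 H2A genes were called in none of the 4 comparisons. HIST1H2AI (ENSG00000196747, chr6:27808199-27808701, + strand) was at 1.46 and 1.65 FPKM in si1, 0.881 and 0.657 FPKM in si2, and 0.714 and 1.36 FPKM in NC, with limma adjusted p = 0.257 for si1 and 0.514 for si2 against NC. Its si1 libraries were highest, and si2 and NC overlapped. HIST3H2A (ENSG00000181218, chr1:228456979-228457873, − strand) was at 1.16 and 0.528 FPKM in si1, 1.34 and 0.665 FPKM in si2, and 1.07 and 1.59 FPKM in NC. All 3 of its groups overlapped, and it was the only one of the 14 genes with a negative log2 fold change in si1 (−0.35, SE 0.253, limma adjusted p = 0.369). Of the 14 genes, HIST3H2A is the only one outside the HIST1 and HIST2 clusters, and it lies with HIST3H2BB and HIST3H3 on the long arm of chromosome 1.

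Among H2B genes, HIST1H2BD (ENSG00000158373, chr6:26158146-26171349, + strand) was at 13.0 and 14.6 FPKM in si1, 2.25 and 2.35 FPKM in si2, and 2.89 and 2.03 FPKM in NC. The si1 libraries were far above the rest, and the si2 libraries lay between the NC libraries. The reads behind these values were 185 and 215 in si1, 31 and 31 in si2, and 42 and 31 in NC. HIST1H2BD was higher in si1 than in NC (log2 fold change 2.11, SE 0.131, limma adjusted p = 0.000175), was not called in si2 against NC (−0.05, SE 0.131, limma adjusted p = 0.793) and was lower in si2 than in si1 (−2.16, SE 0.131, limma adjusted p = 7.84e-05). The call of both groups together (1.03, SE 0.113, limma adjusted p = 0.00175) averages a group above NC and a group level with it. This call did not hold when the 4 knockdown libraries were fitted as 1 group (adjusted p = 0.593).

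HIST1H2BK (ENSG00000197903, chr6:27146418-27146798, − strand) was at 35.0 and 32.9 FPKM in si1, 22.3 and 17.9 FPKM in si2, and 24.0 and 20.2 FPKM in NC. The si1 libraries were highest, and si2 and NC overlapped. It was higher in si1 than in NC (log2 fold change 0.60, SE 0.121, limma adjusted p = 0.0137) and lower in si2 than in si1 (−0.74, SE 0.121, limma adjusted p = 0.0035), while si2 against NC was not called (−0.14, SE 0.121, limma adjusted p = 0.439). The si1 call did not hold without NC replicate 2 (adjusted p = 0.0855) and without si1 replicate 1 (0.0607), within a range of 0.0029 to 0.0855. Of the 50-base sequences in its model, 74.1% also occur in transcripts of other genes, 61.4% in those of H2BFS, so the counting could have split its reads.

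HIST2H2BE (ENSG00000184678, chr1:149884459-149886652, − strand) was at 2.65 and 2.91 FPKM in si1, 0.606 and 0.422 FPKM in si2, and 1.23 and 1.14 FPKM in NC, with no overlap between groups. It was higher in si1 than in NC (log2 fold change 0.79, SE 0.142, limma adjusted p = 0.00918), lower in si2 than in NC (−0.53, SE 0.142, limma adjusted p = 0.0309) and lower in si2 than in si1 (−1.32, SE 0.142, limma adjusted p = 0.000659). The si1 call did not hold without NC replicate 1 (adjusted p = 0.0511), NC replicate 2 (0.0571) or si1 replicate 2 (0.0561), within a range of 0.00262 to 0.0571, and the si2 call without any 1 of the 6 libraries (0.0506 to 0.128).

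HIST1H2BF (ENSG00000277224, chr6:26199520-26200715, + strand) was at 2.46 and 2.08 FPKM in si1, 1.11 and 1.27 FPKM in si2, and 1.80 and 1.71 FPKM in NC. Its groups did not overlap, yet neither was called against NC (limma adjusted p = 0.225 in si1 and 0.0968 in si2). It was lower in si2 than in si1 (log2 fold change −0.57, SE 0.129, limma adjusted p = 0.0123), a call that did not hold without si1 replicate 1 (adjusted p = 0.0664) or si2 replicate 1 (0.0599), within a range of 0.0062 to 0.0822. HIST1H2BC (ENSG00000180596, chr6:26114873-26123926, − strand) was at 1.54 and 2.41 FPKM in si1, 0.759 and 1.51 FPKM in si2, and 2.15 and 0.614 FPKM in NC. The libraries of a group lay as far apart as the groups, and no comparison was called (limma adjusted p = 0.463 in si1 and 0.848 in si2 against NC).

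H3 and H4 form the tetramer at the centre of the nucleosome core. HIST1H3H (ENSG00000278828, chr6:27810064-27811300, + strand), the only H3 gene detected, was at 4.75 and 4.01 FPKM in si1, 0.614 and 0.160 FPKM in si2, and 2.90 and 1.52 FPKM in NC. The reads behind these values were 96 and 84 in si1, 12 and 3 in si2, and 60 and 33 in NC, and the groups did not overlap. It was lower in si2 than in NC (log2 fold change −1.20, SE 0.245, limma adjusted p = 0.0125) and lower in si2 than in si1 (−1.97, SE 0.245, limma adjusted p = 0.00116). In si1 against NC the log2 fold change was 0.78 (SE 0.245, limma adjusted p = 0.0627), which missed the threshold. The si2 call did not hold without NC replicate 1 (adjusted p = 0.0632) and without si2 replicate 2 (0.0553), within a range of 0.00422 to 0.0856. The next H3 gene, HIST1H3B, averaged 0.312 FPKM.

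Of the H4 genes, HIST1H4I (ENSG00000276180, chr6:27138588-27139881, + strand) was at 3.88 and 3.88 FPKM in si1, 2.30 and 2.05 FPKM in si2, and 2.78 and 2.42 FPKM in NC. HIST1H4H (ENSG00000158406, chr6:26277609-26285638, − strand) was at 2.21 and 2.65 FPKM in si1, 0.527 and 0.489 FPKM in si2, and 0.858 and 1.08 FPKM in NC. In both genes the groups did not overlap, with si1 highest and si2 lowest. HIST1H4I was higher in si1 than in NC (log2 fold change 0.44, SE 0.105, limma adjusted p = 0.0247) and lower in si2 than in si1 (−0.62, SE 0.105, limma adjusted p = 0.00391). HIST1H4H was higher in si1 than in NC (log2 fold change 0.80, SE 0.154, limma adjusted p = 0.0116) and lower in si2 than in si1 (−1.18, SE 0.154, limma adjusted p = 0.0014). In si2 against NC they were not called (limma adjusted p = 0.237 for HIST1H4I and 0.107 for HIST1H4H). Neither si1 call held without the filter on low values, and that of HIST1H4I was also lost with limma-voom on recovered reads (adjusted p = 0.121). The si1 call of HIST1H4I did not hold without NC replicate 1 (adjusted p = 0.0711), NC replicate 2 (0.136), si1 replicate 1 (0.0755) or si1 replicate 2 (0.0819), within a range of 0.0208 to 0.136. That of HIST1H4H did not hold without NC replicate 1 (0.0769) and without si1 replicate 2 (0.0699), within a range of 0.00335 to 0.0769.

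**Figure D3:**
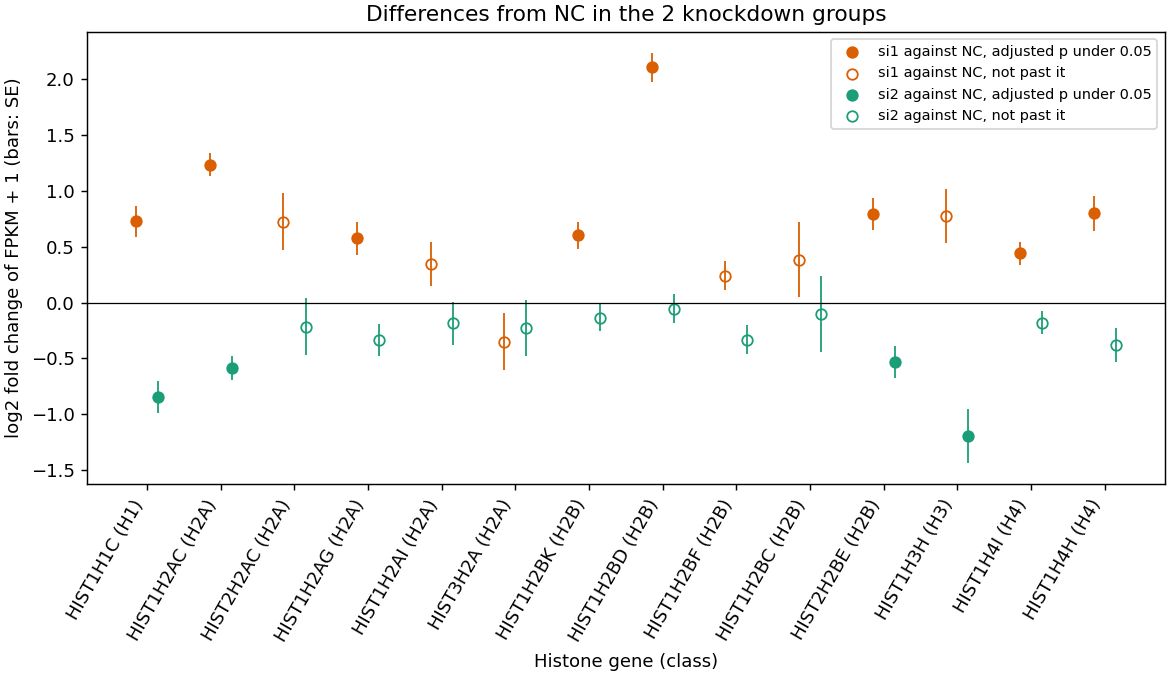
Points show the log2 fold change of FPKM + 1 of the 14 detected histone genes in si1 against NC and in si2 against NC, with bars for limma's SE and filled points at an adjusted p under 0.05. In si1, 13 of 14 points lie above 0 and 8 are filled. In si2, all 14 lie below 0 and 4 are filled, and both comparisons share the 2 NC libraries.

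Near-identical histone genes limit how far a read can be assigned. At least 50% of the 50-base sequences of 16 of the 71 genes occur in transcripts of another gene, HIST1H2BK and HIST1H2AI (62.3%, shared with HIST1H2AJ) being the detected ones. The pairs HIST2H2AA3 and HIST2H2AA4, HIST2H4A and HIST2H4B, HIST2H3A and HIST2H3C, and HIST1H4J and HIST1H4K are nearly the same in sequence, so their low values are uncertain. How the authors treated reads that match several genes is not given in the sources used here. None of the 14 detected genes shares exon bases with another gene, whereas 15 of the 57 others do.

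Genes that act on histone genes, mRNAs and proteins were examined in lists. The comparisons of si1 and si2 share the NC libraries, and their values are given side by side. As background, 9.47% of all tested genes were called higher and 12.9% lower in si1, and 13.6% higher and 15.4% lower in si2. For 3′ end formation and decay of histone mRNA, 16 of 18 listed genes were tested: 0 were higher and 3 lower in si1, and 3 higher and 1 lower in si2, with median log2 fold changes of −0.13 in si1 and 0.02 in si2. SLBP, which binds the stem-loop, was at 41.0 ± 3.57 FPKM in si1, 52.1 ± 2.72 FPKM in si2 and 38.3 ± 2.48 FPKM in NC (SD, n = 2 each). SLBP was higher in si2 than in NC (log2 fold change 0.44, SE 0.0843, limma adjusted p = 0.0102) and not called in si1 (0.09, limma adjusted p = 0.468). MIF4GD, which links SLBP to translation, was higher in si2 (0.39, limma adjusted p = 0.0168). CASP8AP2, needed for histone expression in S phase, was lower in si1 (−0.56, limma adjusted p = 0.0063), as was the cleavage factor CSTF2 (−0.37, limma adjusted p = 0.0243).

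Of 10 listed genes for the transcription of histone genes, 9 were tested: 0 were higher and 2 lower in si1, and 3 higher and 0 lower in si2 (medians −0.03 in si1 and 0.15 in si2). CDC25A, the phosphatase that activates CDK2, was lower in si1 (log2 fold change −0.63, limma adjusted p = 0.00314) and higher in si2 (0.42, limma adjusted p = 0.0128). CDK2 was lower in si1 (−0.41, limma adjusted p = 0.0139), and E2F1 was higher in si2 (0.47, limma adjusted p = 0.0115). NPAT, the coactivator of these genes, was not called in si1 (−0.38, limma adjusted p = 0.0599). Over all tested genes, 12.9% were called lower in si1 and 13.6% higher in si2.

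In si1, 9.47% of all tested genes were called higher and 12.9% lower, and in si2 13.6% higher and 15.4% lower. For si2 against si1 the shares were 19.9% higher and 18.6% lower. Of 34 S phase genes, all tested, 0 were higher and 19 lower in si1. In si2, 12 of these genes were higher and 3 lower, and in si2 against si1 23 were higher and 1 lower. Their median log2 fold change was −0.33 in si1, 0.19 in si2 and 0.61 in si2 against si1, and that of the 14 histone genes 0.66, −0.28 and −0.93 in the same order. GINS1, a subunit of the replicative helicase, was lower in si1 by a log2 fold change of −1.13, and GINS2, of the same complex, by −0.86. Histone chaperones, which carry histones to DNA, had 17 of 19 genes tested, with 0 higher and 2 lower in si1, and 3 higher and 1 lower in si2. RBBP4, a subunit of chromatin assembly factor CAF-1, was lower in si1 (−0.79, limma adjusted p = 0.00181) and higher in si2 (0.59, limma adjusted p = 0.00486), and TONSL, which binds newly made H4, was lower in si2 (−0.63, limma adjusted p = 0.00638).

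Most replication-independent variants are made throughout the cell cycle from polyadenylated mRNAs. Of 12 listed, 11 were tested: 3 were higher and 2 lower in si1, and 2 higher and 3 lower in si2. The shares of all tested genes called higher and lower were 9.47% and 12.9% in si1, and 13.6% and 15.4% in si2. The variants had median log2 fold changes of 0.16 in si1 and 0.11 in si2. Their summed level was 479 and 512 FPKM in si1, 499 and 498 FPKM in si2, and 481 and 489 FPKM in NC. Both si2 libraries lay above both NC libraries, and the si1 libraries lay on both sides of the others. H2AFJ, an H2A variant, was at 9.39 and 9.96 FPKM in si1, 5.17 and 5.62 FPKM in si2, and 4.58 and 4.38 FPKM in NC. It was higher in si1 than in NC (log2 fold change 0.96, limma adjusted p = 0.000493) and lower in si2 than in si1 (−0.74, limma adjusted p = 0.000691). H2AFZ was lower in si1 (−0.38, limma adjusted p = 0.0133) and not called in si2 (0.11, limma adjusted p = 0.302). H2AFV and H1FX were lower in si2 (limma adjusted p = 0.0212 and 0.0282) and not called in si1 (0.959 and 0.954). The variants H3F3A, H2AFY2 and H2AFX moved the same way in both groups. H3F3A, which encodes the variant H3.3, was higher in si1 (0.49, limma adjusted p = 0.00234) and in si2 (0.39, limma adjusted p = 0.00529), and H2AFY2, a macroH2A gene, was higher in si1 (0.63, limma adjusted p = 0.00231) and in si2 (0.47, limma adjusted p = 0.00672). H2AFX, whose product is phosphorylated at DNA breaks, was lower in si1 (−0.28, limma adjusted p = 0.0319) and in si2 (−0.53, limma adjusted p = 0.00253).

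**Figure D4:**
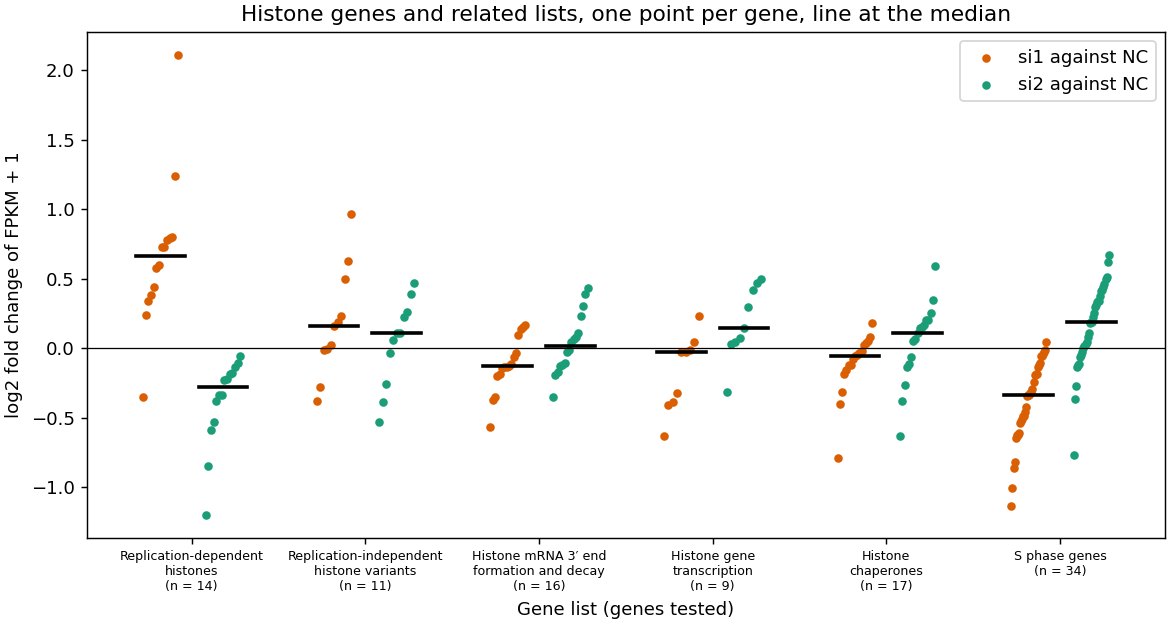
Each point is the log2 fold change of FPKM + 1 of 1 tested gene in si1 against NC or in si2 against NC, by gene list, with a line at the median. The median of the 14 replication-dependent histone genes is 0.66 in si1 and −0.28 in si2, and that of the 34 S phase genes is −0.33 in si1 and 0.19 in si2.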

How the data were processed

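Values were FPKM per gene computed by the authors. The submitters' processing notes name hg38. The aligner, the counting and the annotation are not given in the sources used here. Start, end and length matched in 71 of 71 members those of GENCODE 29. FPKM times length was a whole multiple of 1 step per library for 100% of values (within 0.001), which gave the reads quoted, 14948607 to 17401392 per library. Limits from 0 reads (3 reads) cover counting error only. limma 3.58.1 (R 4.3.3) was fitted to log2(FPKM + 1) of the 12319 genes averaging at least 1 FPKM, with 1 coefficient per group, 6 libraries, a variance trend and 4 contrasts, two-sided. This scale understates changes of low genes. Named with values in every library were members called in any contrast, the highest member of each class and those nearest 1 FPKM. Members named from the lists with fold changes were taken from the 4 called in each list with the largest change, and SLBP was named in any case. FEN1, CLSPN, YY1, ASF1B and HAT1 were also among these but are not described. HIST1H2AI, HIST1H2BC, HIST1H2BB, NPAT, H2AFZ, H2AFV, H1FX and members named only for a low level or a neighbour were added after their values were seen. Members and lists were chosen with earlier results of these data known. Alternatives were the filter, the pseudocount, voom on recovered reads, the variance model, the replicate block, the libraries fitted and leaving out each library.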

Additional observations from a re-analysis of the deposited data

Results flagged for a closer look

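In 11 of the 14 tested histone genes the effects of si1 and si2, both measured against the same NC libraries, differed in a direct test of si2 against si1 (limma, adjusted p under 0.05 over 12319 genes). The same test called 38.5% of all tested genes in either direction and 18.6% of all tested genes lower in si2. The difference in log2 fold change was −2.16 for HIST1H2BD, −1.97 for HIST1H3H, −1.82 for HIST1H2AC, −1.57 for HIST1H1C and −1.32 for HIST2H2BE. It was −1.18 for HIST1H4H, −0.94 for HIST2H2AC, −0.91 for HIST1H2AG, −0.74 for HIST1H2BK, −0.62 for HIST1H4I and −0.57 for HIST1H2BF. In all 11 genes both si2 libraries lay below both si1 libraries, as in 33.8% of all tested genes. The 11 genes were called on these same values, so this is no separate evidence. With 2 libraries per group, no library was tested for standing apart from its group.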

How the results depend on the processing

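Against NC, the count of 2 genes called for si1 and si2 together was 1 without the filter, with a pseudocount of 0.1, with voom on recovered reads, without a variance trend and with the replicate block, 0 with the 4 knockdown libraries as 1 group, and 1 to 1 leaving out each library. The si1 count of 8 was 5 without the filter, 4 at a mean of at least 5 FPKM and 3 to 8 leaving out each library. The si2 count of 4 was 1 without the filter, 2 at 5 FPKM, 7 without a variance trend and 1 to 3 leaving out each library. In si2 against si1 the count of 11 was 4 at 5 FPKM, where only 4 histone genes were tested, and 9 to 11 leaving out each library. Replicate numbers did not pair the libraries (correlations of −0.05, 0.05 and −0.06 between same-numbered libraries of 2 groups). With the replicate block the counts were 9 in si1, 3 in si2 and 11 in si2 against si1. With it, HIST2H2BE in si2 had an adjusted p of 0.0514. The count of 14 detected genes was 6 at 1 FPKM in every library, and 13 to 14 leaving out each library. The H2B share of 52.2% was 40.7% of reads, and 51.2% to 53.2% leaving out each library. Over all genes, the calls ran from 84 to 3539 together (2529 in the fit reported), 1114 to 3743 in si1, 1490 to 4474 in si2 and 2973 to 5477 in si2 against si1. Of 25 gene-level calls under 337 alternatives, 277 kept their direction and threshold, 60 kept the direction only and 0 reversed. Calls held in every alternative for HIST1H2BD and HIST1H2AC in si1 and for 9 genes in si2 against si1. With voom on recovered reads the calls of HIST1H4I in si1, of HIST2H2AC and HIST1H2BF in si2 against si1, and of HIST1H2AC for both groups together did not hold. Beyond the fits named, the cause of the changes was not tested. Depth limits most genes: 44 of the 57 below 1 FPKM had at most 10 reads in all.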

Other observations

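The deposited table also holds 19 histone rows whose symbols follow the same pattern but whose type is not protein-coding. HIST2H2BC, a transcribed pseudogene of the chromosome 1 cluster, was at 1.36 and 1.39 FPKM in si1, 0.973 and 1.04 FPKM in si2, and 0.743 and 0.928 FPKM in NC. HIST2H2BD, also a transcribed pseudogene, was at 0.559 and 0.605 FPKM in si1, 0.613 and 0.366 FPKM in si2, and 0.414 and 0.504 FPKM in NC. The other 17 rows averaged at most 0.180 FPKM, the value of HIST1H4PS1.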
